A study of Mus musculus with 72 samples.

Results

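The 40 genes described here act when cells divide: cyclins and CDK1, the DNA replication machinery, chromosome structure proteins, the kinetochore and spindle checkpoint, spindle motors and the cytokinesis apparatus. They were taken by gene symbol from a deposited table of 20105 counted mouse genes, and all 40 symbols were found there. Diap3 is the table's name for the gene that the annotation calls Diaph3.

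Most adult hepatocytes rest outside the cell cycle, and many of them carry more than the usual set of chromosomes. When a cell commits to divide, D-type and E-type cyclins with their kinases release E2F factors, which switch on the genes of DNA replication, and a later wave of genes, held silent in resting cells by the DREAM complex through CHR elements in their promoters, builds the spindle, the kinetochores and the cleavage furrow. Cachexia is the wasting of body mass that some tumours cause.

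RNA was measured in liver nuclei of 36 mice, all of the genotype CAG-Sun1/sfGFP, Albumin-Cre, in which Cre under the Albumin promoter switches on a nuclear membrane tag in hepatocytes so that tagged nuclei can be caught on beads. Each animal gave 2 libraries, one of bead-bound hepatocyte nuclei and one of whole liver nuclei. The groups of 4 animals each were, in BALB/c mice, C26 PBS, C26 tumour at pre-cachexia and C26 tumour at cachexia, and NC26 tumour and its own PBS group, and in C57BL/6N mice, 8025 tumour at cachexia and PBS, and MC38 tumour and PBS. C26 and 8025 are lines that cause cachexia, which the labels define by a loss of more than 10% of body weight, NC26 and MC38 are lines whose carriers kept their weight, and each tumour condition was tested against the PBS group of its own cohort. The labels put sampling at zeitgeber time 9 h, and they name each tumour as a single line, so line and condition cannot be told apart. The labels give separate animal numbers, so the p-values measure spread between animals.

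In units of 1000000 counts, the 72 libraries held 8.49 to 56.4 in hepatocyte nuclei (median 26.1) and 12.2 to 30.3 in whole liver nuclei (median 20.1). The 40 genes together took 740 to 7023 of these counts per hepatocyte library and 625 to 11858 per whole liver library, so single genes often rest on few reads. Values are CPM, the counts of a gene per 1000000 counts of its library, with library sizes scaled by TMM. A low-count filter kept 39 of the 40 genes in each fraction and dropped Ccnb1. In hepatocyte nuclei 19 genes reached the filter level of 0.384 CPM in all 9 groups, and Bub1, Plk1, Aurkb, Melk, Prc1 and Anln reached it in at most 2. Such genes thus entered the test through the libraries in which they are high. Bub1 and Aurkb reached the level in only 5 and 4 libraries, and in most libraries of no group. Among whole liver libraries, 23 genes reached the filter level of 0.497 CPM in every group, and Aurkb and Anln in at most 2. Where counts below include any of these genes, that part of the count follows in part from the filter. Counts cover introns and exons, and the use of strand in counting is not stated. Ccne2 shares 41.9% of its span with Ints8, Ccnd1 17.7% with LTO1, Ccna2 12.1% with Exosc9, Ncapg 11% with Lcorl and Prc1 100% with Rccd1, each on the other strand, so their reads cannot be told apart from those of the partner. The hepatocyte markers were present in both fractions: 10 of them summed to 9092.6 to 28002.3 CPM in the hepatocyte and 8972.1 to 26055.8 CPM in the whole liver libraries of the C26 cohort, so that this sum does not tell the fractions apart. Markers of Kupffer cells, endothelium, stellate cells and lymphocytes do, being lower in hepatocyte nuclei, as given beside the results, and those of red cell precursors do not.

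Promoters were read for 33 of the 40 genes from the RefSeq promoter table of build GRCm38.p6 (250 bases before to 50 after the start site). The CHR element, TTTGAA on either strand, occurred in 21 of the 33 promoters (63.6%) and in 15.3% of 15306 promoters of counted genes. The CCAAT box occurred in 26 (78.8%, against 38.6%), and an E2F element, TTGGCGC or TTCCCGC, in 11 (33.3%, against 9.35%). A match is a run of letters on either strand and not a tested site, and a CCAAT box on the other strand can overlap the first of the E2F runs. The 6 promoters printed here belong to the genes that passed the test in the most comparisons of hepatocyte nuclei and have an entry in the table, with ties broken by the smallest p. Sequences run 5′ to 3′ along the gene, and capitals mark CHR elements, CCAAT boxes and E2F elements.
Top2a, chr11:99024140-99024439, minus strand: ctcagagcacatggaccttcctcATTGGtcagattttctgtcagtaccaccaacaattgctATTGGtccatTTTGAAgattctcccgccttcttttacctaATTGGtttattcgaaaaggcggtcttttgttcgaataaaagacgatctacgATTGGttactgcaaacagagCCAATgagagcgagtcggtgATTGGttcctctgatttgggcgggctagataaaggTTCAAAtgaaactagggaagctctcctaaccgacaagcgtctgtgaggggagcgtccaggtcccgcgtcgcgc
Mki67, chr7:135716330-135716629, minus strand: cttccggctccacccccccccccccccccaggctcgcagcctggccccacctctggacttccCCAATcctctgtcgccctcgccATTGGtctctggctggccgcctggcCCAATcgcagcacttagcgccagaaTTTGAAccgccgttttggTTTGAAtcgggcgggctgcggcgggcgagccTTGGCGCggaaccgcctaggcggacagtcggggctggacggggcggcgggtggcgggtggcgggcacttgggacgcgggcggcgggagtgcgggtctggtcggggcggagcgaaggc
Nusap1, chr2:119618048-119618347, plus strand: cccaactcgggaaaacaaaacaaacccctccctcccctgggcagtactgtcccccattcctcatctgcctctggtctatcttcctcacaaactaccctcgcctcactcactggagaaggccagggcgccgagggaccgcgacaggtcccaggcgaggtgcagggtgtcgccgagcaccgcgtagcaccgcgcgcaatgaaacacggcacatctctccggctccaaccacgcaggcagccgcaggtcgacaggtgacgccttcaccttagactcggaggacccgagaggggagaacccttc
Cenpe, chr3:135212313-135212612, plus strand: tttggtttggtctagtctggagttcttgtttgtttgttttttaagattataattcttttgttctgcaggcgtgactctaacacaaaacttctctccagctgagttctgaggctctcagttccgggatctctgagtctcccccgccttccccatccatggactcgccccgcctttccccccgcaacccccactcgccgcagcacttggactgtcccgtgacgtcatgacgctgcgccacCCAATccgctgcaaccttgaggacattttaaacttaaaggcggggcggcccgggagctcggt
Brca1, chr11:101551906-101552205, minus strand: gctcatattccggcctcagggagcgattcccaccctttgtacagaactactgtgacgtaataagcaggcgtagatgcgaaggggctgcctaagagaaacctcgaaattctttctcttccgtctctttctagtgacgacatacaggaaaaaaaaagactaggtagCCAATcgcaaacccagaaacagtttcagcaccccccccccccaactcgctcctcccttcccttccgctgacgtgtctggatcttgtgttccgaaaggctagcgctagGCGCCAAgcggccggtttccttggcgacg
Cenpf, chr1:189688037-189688336, minus strand: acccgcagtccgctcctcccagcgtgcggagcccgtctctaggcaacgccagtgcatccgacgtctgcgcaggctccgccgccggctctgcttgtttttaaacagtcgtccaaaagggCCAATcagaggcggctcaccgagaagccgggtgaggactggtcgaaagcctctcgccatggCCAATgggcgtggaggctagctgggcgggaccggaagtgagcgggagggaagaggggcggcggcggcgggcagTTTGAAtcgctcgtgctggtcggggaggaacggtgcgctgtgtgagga
Top2a, the topoisomerase that untangles sister chromatids, had 6 CCAAT boxes and 2 CHR elements, one of them 23 to 18 bases before the start site. Mki67, which coats mitotic chromosomes and is the usual stain for dividing cells, had 3 CCAAT boxes, 2 CHR elements and an E2F element 67 to 61 bases before the start. Cenpf had 2 CCAAT boxes and a CHR element at positions 2 to 7 after the start, Cenpe a single CCAAT box, Brca1 a CCAAT box and an E2F element, and Nusap1 none of the 3.

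In livers of the 16 PBS animals the genes were low, and their level per kilobase of counted length spanned a wide range. In hepatocyte nuclei the highest were Ccnb2 at 0.375 CPM per kilobase, Ccnd1 at 0.372, Ccne2 at 0.285, E2f8 at 0.217 and Rrm2 at 0.2. The lowest were Melk at 0.00255, Bub1 at 0.00371, Ccnb1 at 0.00535, Diap3 at 0.00563 and Nusap1 at 0.00673 CPM per kilobase. Whole liver nuclei had Ccnd1 first, at 0.57, before Ccne2 with 0.328 and Ccnb2 with 0.321 CPM per kilobase. The order is thus headed by Ccnb2, Ccnd1 and Ccne2 in both fractions, while another cyclin, Ccnb1, is among the lowest in hepatocyte nuclei. Diap3 stands low there through its counted length of 484792 bases, since it averaged 2.73 CPM. Ccnd1, the cyclin that starts the cycle, had a mean of 3.71 ± 3.41 CPM in hepatocyte nuclei and 5.68 ± 3.55 CPM in whole liver nuclei (SD, n = 16 each). These SDs pool the 4 cohorts and both strains. In hepatocyte nuclei Ccnd1 was at 0.771 to 2.33 CPM in C26 PBS and 0.69 to 0.888 CPM in NC26 PBS (both BALB/c). It was at 7.84 to 9.09 CPM in 8025 PBS (C57BL/6N), and the MC38 PBS animals of that strain spread most widely.

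Most genes of mitosis were lower in hepatocyte nuclei than in whole liver nuclei of the PBS animals. Without the animal as a block, which pairs the libraries of a mouse, most cyclins and replication genes did not pass the test. With the block, given in the next paragraph, more of them passed. In the fit without the block, 21 of 39 genes tested were lower in hepatocyte nuclei and 0 were higher by edgeR (background over all genes, 24.5% lower and 26.4% higher). By unadjusted p under 0.05, 23 of the 39 passed, near the share over all genes (7953 of 14054), and DESeq2 called 22. The median log2 ratio of the 39 genes was -0.71, against 0.08 over all genes. By role, 4 of 4 chromosome structure genes, 6 of 8 kinetochore and checkpoint genes, 4 of 6 spindle genes and 4 of 6 cytokinesis genes were lower, against 1 of 6 cyclins and CDK1 and 2 of 9 replication genes. The name replication genes stands here for genes of S phase and its transcription factors. These are Mcm2, Mcm3, Mcm4, Mcm5, Mcm6, Rrm2, the transcription factors E2f1 and E2f8, and the repair gene Brca1. In these bulk libraries fewer cells of a type and less RNA per cell cannot be told apart.

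Kif23, a motor of the cytokinetic midzone, averaged 0.398 ± 0.22 CPM in hepatocyte nuclei and 2.47 ± 0.672 CPM in whole liver nuclei, which is 16.9% of the whole liver level (log2 ratio -2.56 ± 0.26, SE, adjusted p = 2.7e-13). Mki67 averaged 1.41 ± 1.41 CPM in hepatocyte nuclei and 4.59 ± 1.25 CPM in whole liver nuclei (27.6%, log2 ratio -1.86 ± 0.27, adjusted p = 4.5e-08). Melk, a mitotic kinase, followed with 0.163 ± 0.204 and 0.472 ± 0.295 CPM (log2 ratio -1.68 ± 0.48, adjusted p = 0.0024). Prc1, which bundles the microtubules of the midzone, had a log2 ratio of -1.66 ± 0.34 (adjusted p = 4.3e-05), and Cenpf, a kinetochore protein, -1.64 ± 0.36 (adjusted p = 0.00014). These were the 5 lowest ratios, and Top2a came next at -1.53 ± 0.28 (adjusted p = 4e-06). At the other end no gene passed the test. Ccnb2, a B-type cyclin, averaged 5.2 ± 1.47 CPM in hepatocyte nuclei and 4.45 ± 1.41 CPM in whole liver nuclei (log2 ratio 0.38 ± 0.17, adjusted p = 0.061). With the animal as a block, since both libraries of a mouse come from one liver, Ccnb2 passed (log2 ratio 0.37, adjusted p = 5.4e-05) and 29 genes were called in all, Ccnb2 higher and 28 lower. By role these 28 were 4 of 4 chromosome structure genes, 7 of 8 kinetochore and checkpoint genes, 5 of 6 spindle genes, 6 of 6 cytokinesis genes, 2 of 6 cyclins and CDK1 and 4 of 9 replication genes. The share called over all genes with this block was not counted, so the larger count cannot be read as particular to these genes. Ccne1, an E-type cyclin, stood at 0.29 ± 0.18 (adjusted p = 0.17), the transcription factors E2f1 and E2f8 at 0.19 ± 0.17 and 0.19 ± 0.33 (adjusted p = 0.34 and 0.66), and the repair gene Brca1 at 0.05 ± 0.19 (adjusted p = 0.83). Cdk1, the mitotic kinase, averaged 0.566 ± 0.333 CPM in hepatocyte nuclei and 0.871 ± 0.243 CPM in whole liver nuclei (log2 ratio -0.58 ± 0.30, adjusted p = 0.1), Ccnd1 had a ratio of -0.85 ± 0.22 (adjusted p = 0.00077) and Ccne2 of -0.01 ± 0.15 (adjusted p = 0.95). Markers of several other liver cells were further down in hepatocyte nuclei, with list medians of -2.61 for Kupffer cells (12 of 13 lower), -2.65 for sinusoidal endothelium (12 of 12), -2.44 for stellate cells (11 of 11), -2.34 for T and NK cells (9 of 9 tested), -2.64 for B cells (6 of 8) and -2.54 for monocytes (7 of 7 tested). The cholangiocyte median was -0.78 (4 of 8 lower and 1 higher). The list of erythroid progenitors, another cell that divides, had a median of -0.19, with 1 of 8 tested markers higher and 1 lower, and summed to 169 to 279.5 CPM in hepatocyte nuclei of C26 PBS animals and 131.5 to 182.2 CPM in their whole liver nuclei. The part of these cells in the fraction difference was not tested.

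**Figure D1:**
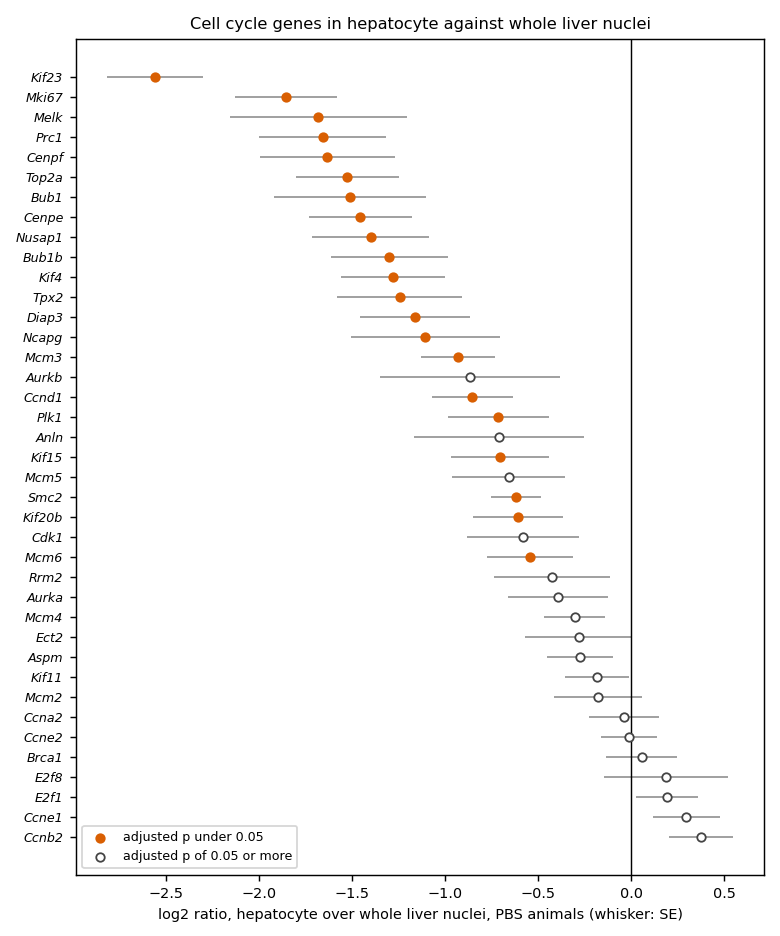
Log2 ratio of hepatocyte over whole liver nuclei in the 16 PBS animals for the 39 tested genes (points, whiskers are SE; filled points have an adjusted p under 0.05). Kif23 stands lowest at -2.56, and Ccnb2 highest at 0.38 without passing the test. The fit shown did not take the animal as a block, with which Ccnb2 passed.

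The summed level of the 40 genes moved through the course of the C26 tumour. In hepatocyte nuclei the sums were 43.4, 58.5, 45.1 and 60 CPM in the C26 PBS animals, 71.2, 116.6, 63.6 and 105.9 CPM at pre-cachexia, and 64.9, 38.7, 39.7 and 46.7 CPM at cachexia. All 4 pre-cachexia animals lay above all 4 PBS animals, and the cachexia animals reached from below the PBS range to above it, through animal 1. The mean sum was 51.8 ± 8.71 CPM in PBS, 89.3 ± 25.9 CPM at pre-cachexia and 47.5 ± 12.1 CPM at cachexia (SD, n = 4 each). For whole liver nuclei the sums were 80.5, 94.2, 72.8 and 96.4 CPM in PBS, 122.4, 169.9, 104.9 and 152.1 CPM at pre-cachexia, and 75.3, 53.4, 56.2 and 48.6 CPM at cachexia. There too every pre-cachexia animal was above every PBS animal, and 3 of the 4 cachexia animals were below all PBS animals. The ratio of mean sums was 1.73 for pre-cachexia over PBS and 0.532 for cachexia over pre-cachexia in hepatocyte nuclei, and 1.6 and 0.425 in whole liver nuclei. Pre-cachexia animal 2 had the highest sum and animal 3 the lowest in both fractions. The 2 libraries of an animal come from the same liver and are not separate evidence.

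The roles did not move as a block. In hepatocyte nuclei the cyclin and CDK1 sum was 15.6, 13.2, 13.6 and 19.2 CPM in PBS, 10.3, 14.3, 8.15 and 14.4 CPM at pre-cachexia, and 5.71, 6.32, 5.83 and 8.31 CPM at cachexia, where all 4 animals lay below the PBS animals and animal 4 overlapped the pre-cachexia range. The kinetochore and checkpoint sum was 1.58, 2.35, 2.01 and 2.66 CPM in PBS, 5.27, 11.9, 2.57 and 8.34 CPM at pre-cachexia, and 1.2, 1.22, 1.33 and 1.3 CPM at cachexia. The replication gene sum was 15.1, 17.1, 13.7 and 17.9 CPM in PBS, 26.1, 23.9, 28.5 and 26.5 CPM at pre-cachexia, and 36.6, 20.8, 19.5 and 25.1 CPM at cachexia. A pair of genes carried much of it in the tumour groups. Brca1 made up 13.9, 11.9, 11.1 and 15.7 CPM of the cachexia sums, and E2f8 was at 14.6 CPM in cachexia animal 1 and at 20.1 CPM in pre-cachexia animal 3. Without both, taken out after their values were seen, the sum was 8.06, 9.57, 7.24 and 8.49 CPM in PBS, 15, 12.1, 5.9 and 10.5 CPM at pre-cachexia, and 8.15, 5.51, 6.34 and 4.75 CPM at cachexia, where 3 of 4 animals lay below the PBS range. The cytokinesis sum reached 10.5, 28, 12.2 and 23.9 CPM at pre-cachexia, against 2.98, 7.88, 5.44 and 6.63 CPM in PBS.

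In the other cohorts the sums spread more widely among tumour animals than among PBS animals. In hepatocyte nuclei they were 54.3, 164.1, 250.2 and 61.3 CPM in 8025 cachexia, against 73.1, 60.1, 101.1 and 98.1 CPM in 8025 PBS. They were 94.2, 46.7, 83.7 and 151.3 CPM with the NC26 tumour, against 44.5, 49.6, 38.3 and 46.1 CPM in NC26 PBS, and 46.8, 86.8, 73.2 and 59.9 CPM with the MC38 tumour, against 55.1, 55.7, 53.8 and 52.5 CPM in MC38 PBS. In each of the 3 cohorts some tumour animals were within the PBS range (8025 animal 4 and NC26 animal 2) or below it (8025 animal 1 and MC38 animal 1). Whole liver sums were 122.4, 190.1, 343.9 and 92.5 CPM in 8025 cachexia and 124.5, 91.6, 127.8 and 129 CPM in its PBS group, 129.7, 72.2, 117.7 and 150.9 CPM with NC26 and 65.3, 78.5, 61.2 and 72.6 CPM in its PBS group, and 84.9, 124.4, 123.6 and 108.8 CPM with MC38 and 78.2, 80.6, 82.3 and 79.7 CPM in its PBS group. Only the MC38 groups did not overlap there. 8025 cachexia animal 3 was the highest of its group in 34 of the 40 genes in the hepatocyte fraction and in 36 in the whole liver fraction. How often it was the highest over all genes was not counted.

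**Figure D2:**
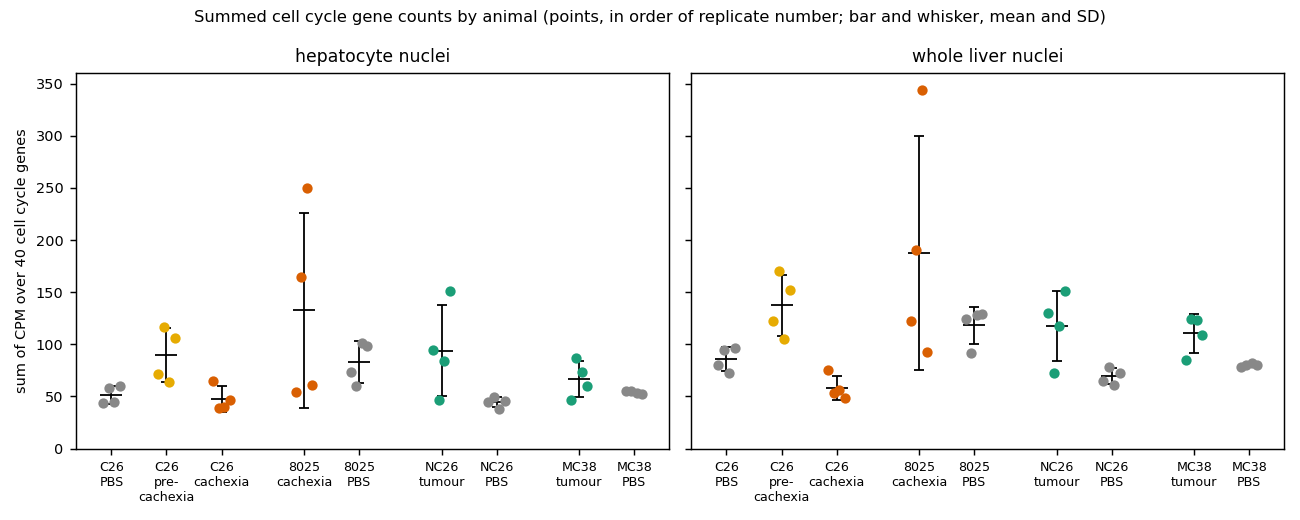
Sum of CPM over the 40 genes in each animal (points), with the group mean and SD, in hepatocyte nuclei and whole liver nuclei. In hepatocyte nuclei the 4 C26 pre-cachexia animals lie between 63.6 and 116.6 CPM, above the 43.4 to 60 CPM of C26 PBS, and 8025 cachexia animal 3 stands at 250.2 CPM.

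The first comparison asks what happened in the liver before weight was lost. In hepatocyte nuclei of C26 pre-cachexia animals, Mki67, Ect2, Bub1b, Top2a, Anln, Nusap1 and Cenpe rose against PBS, 7 of 39 genes (background 4.78%), and 0 fell (background 2.94%). These genes belong to chromosome structure (2 of 4), kinetochore and checkpoint (2 of 8), spindle (1 of 6) and cytokinesis (2 of 6), and none of the 6 cyclins and CDK1 or the 9 replication genes passed. Anln among them reached the filter level in few groups. The median log2 fold change of the 39 genes was 1.33, against 0.01 over all genes, and 34 of them had a positive sign. By unadjusted p under 0.05, 20 of the 39 genes passed, against 3142 of all 13274 tested, and DESeq2 called 11. In 5 genes all pre-cachexia animals were above all PBS animals (background 6.38%), and in 0 genes all were below (background 4.47%).

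Nusap1, which binds spindle microtubules near the chromosomes, was at 0.535, 1.64, 0.36 and 0.849 CPM at pre-cachexia, against 0.0932, 0.28, 0.129 and 0.231 CPM in PBS. The groups did not overlap, and the gene rose 4.59-fold (log2 fold change 2.20 ± 0.63, SE, adjusted p = 0.028). Cenpe, the kinetochore motor, was at 1.48, 2.95, 0.81 and 2.48 CPM at pre-cachexia, against 0.14, 0.561, 0.6 and 0.501 CPM in PBS, again without overlap (4.27-fold, log2 fold change 2.10 ± 0.61, adjusted p = 0.032). Top2a was at 1.44, 4.68, 0.585 and 3.02 CPM, against 0.373, 0.841, 0.557 and 0.579 CPM in PBS, and animal 3 was within the PBS range (4.16-fold, log2 fold change 2.06 ± 0.61, adjusted p = 0.034). Mki67 was at 2.26, 7.59, 1.58 and 6.39 CPM, against 0.326, 1.09, 1.07 and 1.89 CPM in PBS, with animal 3 below the highest PBS animal (4.07-fold, log2 fold change 2.03 ± 0.63, adjusted p = 0.044). Animals 2 and 4 were the highest in these 4 genes. Anln, an actin-binding scaffold of the cleavage furrow, was at 0.988, 0.73, 0.09 and 0.346 CPM, against 0.0466, 0, 0.171 and 0.0771 CPM in PBS (7.27-fold, log2 fold change 2.86 ± 0.89, adjusted p = 0.043). Its counts covered 9983 of the 57993 bases of the gene. Bub1b, the checkpoint protein BubR1, was at 0.741, 1.74, 0.18 and 1.48 CPM, against 0.0932, 0.14, 0.129 and 0.424 CPM (5.26-fold, adjusted p = 0.045), and Ect2, which activates RhoA at the furrow, at 2.96, 5.68, 7.88 and 10 CPM, against 1.12, 2.28, 1.5 and 2.12 CPM (3.75-fold, adjusted p = 0.048).

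Ccnd1 and Ccne2, cyclins of the start of the cycle, and the mitotic kinase Cdk1 did not pass. Ccnd1 was at 0.947, 2.22, 0.81 and 2.11 CPM at pre-cachexia, against 2.33, 0.771, 0.814 and 1.12 CPM in PBS (log2 fold change 0.33 ± 0.50, adjusted p = 0.75), and the groups overlapped. Ccne2 was at 3.34, 3.77, 2.79 and 4.4 CPM, against 3.31, 3.08, 6.26 and 5.79 CPM in PBS (log2 fold change -0.36 ± 0.30, adjusted p = 0.5), and Cdk1 at 0.782, 1.06, 0.36 and 1.35 CPM, against 0.606, 0.806, 0.514 and 0.463 CPM in PBS (log2 fold change 0.59 ± 0.62, adjusted p = 0.61). Cenpf and Diap3, an actin nucleator, did not pass the test (adjusted p = 0.055 and 0.067), although animals 2 and 4 had their highest values.

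The 7 calls of hepatocyte nuclei rest on few animals. Without C26 PBS animal 1, C26 PBS animal 2 or pre-cachexia animal 2 the count was 0, without PBS animal 3, pre-cachexia animal 1 or pre-cachexia animal 4 it was 1, and without PBS animal 4 it was 2, while without pre-cachexia animal 3 it was 11. With only the C26 PBS and pre-cachexia libraries in the fit it was 1, and with no low-count filter 3. The sign of the 5 named genes with the smallest p did not change in any of these fits. The hepatocyte library of C26 PBS animal 1 stands apart in other values: the 5 genes Cmss1, Lars2, Cdk8, Camk1d and Gphn, to which rRNA reads are known to map in mouse, took 7% of its counts, against 2.06% to 3.51% in the other 3 PBS libraries, its Kupffer markers summed to 82 CPM, against 48.7 to 50.5 CPM, and its endothelial markers to 334.6 CPM, against 193.7 to 213 CPM.

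Whole liver nuclei of the same animals also gave 7 genes that rose (background 8.72%) and 0 that fell (background 4.04%). The 7 were Ect2, Bub1b, Top2a, Diap3, Anln, Prc1 and Cenpe. An unadjusted p under 0.05 was found for 20 of the 39, against 3884 of all 13738 tested genes, and DESeq2 called 12 in all. Top2a was at 4.49, 6.77, 3.27 and 5.51 CPM at pre-cachexia, against 1.08, 1.97, 1.07 and 1.88 CPM in PBS, with no overlap (3.36-fold, log2 fold change 1.75 ± 0.35, adjusted p = 0.0014). Prc1 was at 1.67, 3.34, 1.27 and 1.96 CPM, against 0.789, 0.8, 0.39 and 0.645 CPM (log2 fold change 1.64 ± 0.45, adjusted p = 0.015). Diap3 was at 11.4, 18.9, 6.62 and 13.1 CPM, against 3.53, 6.83, 4.34 and 5.11 CPM (log2 fold change 1.34 ± 0.43, adjusted p = 0.037), where animal 3 overlaps the PBS range. Mki67, at 8.53, 12.8, 5.19 and 11.7 CPM against 4.36, 5.33, 3.85 and 5.16 CPM in PBS, did not pass (log2 fold change 1.03 ± 0.36, adjusted p = 0.052). Cdk1 was at 1.36, 3.13, 1.14 and 2.09 CPM, against 0.54, 0.8, 1.17 and 0.939 CPM (log2 fold change 1.17 ± 0.48, adjusted p = 0.1), Ccnd1 at 2.47, 4.99, 2.08 and 3.67 CPM, against 2.99, 4.27, 3.36 and 4.93 CPM (-0.23 ± 0.34, adjusted p = 0.71), and Ccne2 at 4.64, 4.44, 2.62 and 5.07 CPM, against 7.76, 4.91, 6.97 and 8.1 CPM (-0.73 ± 0.29, adjusted p = 0.086). These groups overlapped in all 3 genes. The test of the difference between fractions called 0 of the 39 genes (background 0%, 0 by DESeq2), with a median difference of 0.36 for hepatocyte minus whole liver nuclei. By unadjusted p under 0.05, 0 of the 39 passed, against 156 of all 14054 tested genes. All pre-cachexia animals were above all PBS animals in 9 genes of whole liver nuclei (background 10.9%) and below them in 0 (background 6.31%). Without PBS animal 3 the whole liver count was 1, without PBS animal 1 or pre-cachexia animal 2 it was 2, without pre-cachexia animal 1 it was 3, without PBS animal 4 or pre-cachexia animal 4 it was 4, and without pre-cachexia animal 3 it was 13.

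Markers of other liver cells also differed at pre-cachexia, but not all lists followed the animal order of the genes described here. In hepatocyte nuclei animal 2 was highest in the summed level of these genes (116.6 CPM) and lowest in the Kupffer list (83 CPM) and the monocyte list (8.08 CPM). Animal 3 was lowest both in that summed level (63.6 CPM) and in the T and NK cell list (11 CPM). It was also lowest in whole liver nuclei, in the summed level (104.9 CPM) and the Kupffer list (575.3 CPM). In hepatocyte nuclei the 13 Kupffer cell and macrophage markers summed to 83 to 106.8 CPM at pre-cachexia, against 48.7 to 82 CPM in PBS, and 7 of 13 rose, and the monocyte list (7 tested) summed to 8.08 to 11.3 CPM, against 3.21 to 5.12 CPM, with 2 rising. The 12 T and NK cell markers, of which 4 were tested and 1 rose, summed to 11 to 36.6 CPM at pre-cachexia, against 5.08 to 22.2 CPM in PBS. Most of that sum was Themis, at 4.28 to 31 CPM at pre-cachexia, while the defining T cell marker Cd3e was at 0.0944 to 0.332 CPM, against 0.116 to 0.315 CPM in PBS, and Gzma and Prf1 were at 0 in all PBS animals. The B cell list summed to 14.2 to 21.4 CPM at pre-cachexia, against 10 to 12.4 CPM in PBS (0 of 4 tested rose), and the hepatocyte list to 9092.6 to 12108.3 CPM, against 14490.4 to 16589.1 CPM. A rise in whole liver nuclei was called for 9 of 13 Kupffer markers, 5 of 7 monocyte markers and 2 of 8 T and NK cell markers. The B cell list there summed to 125.5 to 154.2 CPM, against 77.5 to 110.6 CPM in PBS (1 of 8 rose), and the neutrophil list to 7.47 to 11 CPM, against 4.57 to 5.6 CPM (1 of 5 tested rose). Of the 10 hepatocyte markers 1 fell in the hepatocyte and 3 in the whole liver fraction. The part of these cells in the result was not tested.

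At cachexia the comparison with PBS gave a different set of genes, led by cyclins that fell. In hepatocyte nuclei Ccne2, Ccnb2, Ccnd1, Ccne1 and Top2a fell, 5 of 39 (background 10%), and Brca1 rose (background 12.2%). Of the 6 tested cyclins and CDK1, 4 fell. The count that fell is near the background of this comparison and the count that rose is below it. The median log2 fold change was -0.73 against 0 over all genes, and 32 of the 39 genes had a negative sign. In 13 genes every cachexia animal was below every PBS animal (background 9.07%). This comparison uses the same PBS animals as the one above.

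Brca1, a repair and checkpoint gene, was at 13.9, 11.9, 11.1 and 15.7 CPM at cachexia, against 4.19, 4.41, 4.41 and 2.62 CPM in PBS. It rose 3.36-fold (log2 fold change 1.75 ± 0.42, adjusted p = 0.003), and the lowest cachexia animal was above the highest PBS animal. Ccnb2 was at 1.92, 2.9, 0.972 and 3.64 CPM, against 7.08, 5.89, 3.21 and 8.37 CPM in PBS (0.388-fold, log2 fold change -1.37 ± 0.33, adjusted p = 0.0032), and cachexia animal 4 overlapped PBS animal 3. Ccnd1 was at 0.2, 0.29, 0.504 and 0.162 CPM, against 2.33, 0.771, 0.814 and 1.12 CPM (0.232-fold, log2 fold change -2.11 ± 0.59, adjusted p = 0.01), without overlap. Ccne2, an E-type cyclin, was at 2.04, 2, 2.45 and 3 CPM, against 3.31, 3.08, 6.26 and 5.79 CPM (0.516-fold, log2 fold change -0.95 ± 0.30, adjusted p = 0.023), again without overlap. Top2a was at 0.16, 0.0322, 0.108 and 0.162 CPM, against 0.373, 0.841, 0.557 and 0.579 CPM (0.201-fold, log2 fold change -2.31 ± 0.78, adjusted p = 0.03). That level is 4, 1, 3 and 6 reads in the 4 cachexia libraries. Ccne1 was at 0.799, 0.355, 1.12 and 0.648 CPM, against 1.4, 1.12, 1.89 and 2.2 CPM (0.441-fold, adjusted p = 0.033). Cdk1, at 0.04, 0.161, 0.324 and 0.081 CPM against 0.606, 0.806, 0.514 and 0.463 CPM, had no overlap but did not pass (log2 fold change -1.96 ± 0.74, adjusted p = 0.053), nor did Mki67, at 0.28, 0.129, 0.504 and 0.513 CPM against 0.326, 1.09, 1.07 and 1.89 CPM (-1.61 ± 0.72, adjusted p = 0.11). The count of 6 calls was 3 without cachexia animal 2, and Ccnd1 did not pass without PBS animal 1 (adjusted p = 0.054), Ccne2 without any of 4 animals (up to 0.086) or Top2a without any of 3 (up to 0.08). Brca1 and Ccnb2 passed without any single animal. Of the Kupffer markers 7 of 13 rose at cachexia in hepatocyte nuclei, with sums of 86.4 to 127.9 CPM against 48.7 to 82 CPM in PBS, and their part in the result was not tested.

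At cachexia 16 genes fell in whole liver nuclei (background 10.3%) and Brca1 rose (background 11.8%). The genes that fell were Ccnd1, Ccne2 and Ccnb2, Mcm6 of the replicative helicase, Mki67, Top2a and Smc2, the kinetochore genes Cenpe and Aurkb, the spindle genes Nusap1, Kif11, Kif4 and Tpx2, and Kif23, Prc1 and Diap3. Ccne2 was at 1.72, 1.78, 3.02 and 3.34 CPM at cachexia, against 7.76, 4.91, 6.97 and 8.1 CPM in PBS (0.35-fold, log2 fold change -1.52 ± 0.30, adjusted p = 0.00037). Mki67 was at 1.77, 0.758, 1.3 and 1.24 CPM, against 4.36, 5.33, 3.85 and 5.16 CPM (0.269-fold, log2 fold change -1.90 ± 0.41, adjusted p = 0.00087). Ccnd1 was at 0.884, 1.4, 1.06 and 1.32 CPM, against 2.99, 4.27, 3.36 and 4.93 CPM (0.304-fold, log2 fold change -1.72 ± 0.37, adjusted p = 0.001). None of these 3 genes overlapped between the groups. Top2a was at 0.468, 0.227, 0.473 and 0.466 CPM, against 1.08, 1.97, 1.07 and 1.88 CPM (log2 fold change -1.90 ± 0.45, adjusted p = 0.0021), and Brca1 at 10.7, 12.6, 10.3 and 9.87 CPM, against 5.02, 4.75, 4.19 and 4.11 CPM (2.41-fold, log2 fold change 1.27 ± 0.30, adjusted p = 0.0025). Cdk1 was at 0.676, 0.455, 0.355 and 0.233 CPM, against 0.54, 0.8, 1.17 and 0.939 CPM, with overlap (log2 fold change -0.94 ± 0.55, adjusted p = 0.24). Aurkb, the kinase of the chromosomal passenger complex, had 1 read in the 4 cachexia libraries and 20 in the PBS libraries, a ratio of 0.0534 (95% counting interval 0.00129 to 0.334, counting error only). The median log2 fold change was -0.94, against -0.02 over all genes, and in 16 genes the cachexia animals were all below the PBS animals (background 12.6%). In the same libraries 6 of 13 Kupffer markers rose, with sums of 509.6 to 727.9 CPM at cachexia against 356.2 to 496.7 CPM in PBS, as did 4 of 5 tested neutrophil markers (9.48 to 12.4 CPM against 4.57 to 5.6 CPM) and 1 of 2 tested megakaryocyte markers (35 to 69.2 CPM against 10.3 to 15.7 CPM). Their part in the result was not tested.

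The step between the stages was the largest of the 3 C26 comparisons in number of genes. In hepatocyte nuclei at cachexia, against pre-cachexia, 18 of 39 genes fell (background 4.27%) and Brca1 rose (background 4.81%). The median log2 fold change was -1.49, against -0.01 over all genes, and 38 of the 39 genes had a negative sign. The genes that fell were 2 of 6 cyclins and CDK1 (Ccnd1 and Cdk1), 3 of 4 chromosome structure genes (Mki67, Top2a and Ncapg), 5 of 8 kinetochore and checkpoint genes (Cenpe, Cenpf, Bub1, Bub1b and Melk), 5 of 6 spindle genes (Nusap1, Kif11, Kif4, Tpx2 and Aspm) and 3 of 6 cytokinesis genes (Kif23, Prc1 and Diap3). None of the 9 replication genes fell. Bub1, Melk and Prc1 entered the test through the libraries in which they are high, so their part of these counts follows in part from the filter. In 21 genes every cachexia animal was below every pre-cachexia animal (background 5%), and in Brca1 alone every one was above (background 7.74%).

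Top2a was at 0.16, 0.0322, 0.108 and 0.162 CPM at cachexia, against 1.44, 4.68, 0.585 and 3.02 CPM at pre-cachexia (0.0484-fold, log2 fold change -4.37 ± 0.73, adjusted p = 0.00022). Cenpf was at 0.04, 0, 0.108 and 0.027 CPM, against 0.947, 2.69, 0.135 and 1.76 CPM (0.0325-fold, log2 fold change -4.95 ± 0.93, adjusted p = 0.00076). Mki67 was at 0.28, 0.129, 0.504 and 0.513 CPM, against 2.26, 7.59, 1.58 and 6.39 CPM (0.0807-fold, log2 fold change -3.63 ± 0.70, adjusted p = 0.00093). In all 3 the groups were apart, and pre-cachexia animal 3 was the one nearest to the cachexia animals. Tpx2, which recruits Aurora A to the spindle, was at 0.12, 0.0645, 0.072 and 0.108 CPM, against 1.15, 2.97, 0.36 and 2.2 CPM (0.0558-fold, log2 fold change -4.16 ± 0.91, adjusted p = 0.0029). Bub1, the checkpoint kinase, had 1 read at cachexia and 85 at pre-cachexia, a ratio of 0.0135 (95% counting interval 0.000338 to 0.0773, adjusted p = 0.0035), and Melk 3 and 79 reads, a ratio of 0.0436 (0.00881 to 0.132). Fitted fold changes at such counts depend on the prior count of the model. Ccnd1 was at 0.2, 0.29, 0.504 and 0.162 CPM, against 0.947, 2.22, 0.81 and 2.11 CPM (0.185-fold, log2 fold change -2.44 ± 0.58, adjusted p = 0.0061), and Cdk1 at 0.04, 0.161, 0.324 and 0.081 CPM, against 0.782, 1.06, 0.36 and 1.35 CPM (log2 fold change -2.55 ± 0.71, adjusted p = 0.02), both without overlap. Ccne2 did not pass (2.04, 2, 2.45 and 3 CPM, against 3.34, 3.77, 2.79 and 4.4 CPM, log2 fold change -0.59 ± 0.30, adjusted p = 0.25). Brca1, at 13.9, 11.9, 11.1 and 15.7 CPM against 6.51, 5.83, 2.48 and 6.1 CPM, rose 2.5-fold without overlap (log2 fold change 1.32 ± 0.41, adjusted p = 0.037). The count of 19 calls was 10 without pre-cachexia animal 2, and Top2a, Cenpf, Mki67, Tpx2, Bub1 and Ccnd1 passed without any single animal.

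Between the stages 26 genes fell in whole liver nuclei (background 6.94%) and Brca1 rose (background 4.68%), and the median log2 fold change of the 39 was -1.55, against -0.03 over all genes. Beside the 18 genes listed for hepatocyte nuclei, all of which are among the 26, these were Ccne1, E2f1, Mcm5, Mcm6, Smc2, Aurkb, Kif15 and Kif20b. Here 6 of 6 spindle genes, 4 of 4 chromosome structure genes, 6 of 8 kinetochore and checkpoint genes, 4 of 6 cytokinesis genes, 3 of 6 cyclins and CDK1 and 3 of 9 replication genes fell. Top2a was at 0.468, 0.227, 0.473 and 0.466 CPM at cachexia, against 4.49, 6.77, 3.27 and 5.51 CPM at pre-cachexia (0.0798-fold, log2 fold change -3.65 ± 0.42, adjusted p = 1.6e-06). Mki67 was at 1.77, 0.758, 1.3 and 1.24 CPM, against 8.53, 12.8, 5.19 and 11.7 CPM (0.132-fold, log2 fold change -2.92 ± 0.40, adjusted p = 1.6e-05). Diap3 was at 2.76, 1.29, 0.769 and 1.24 CPM, against 11.4, 18.9, 6.62 and 13.1 CPM (log2 fold change -3.03 ± 0.48, adjusted p = 8.4e-05). Each of the 3 was lower in every cachexia animal, and 28 genes in all were (background 8.19%), while Brca1 alone was higher in every one (background 6.71%). Cdk1 (log2 fold change -2.11 ± 0.52, adjusted p = 0.0073) and Ccnd1 (-1.49 ± 0.37, adjusted p = 0.008) fell, and Ccne2 did not pass (-0.78 ± 0.30, adjusted p = 0.095). Without pre-cachexia animal 2 the count of 27 calls was 18.

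**Figure D3:**
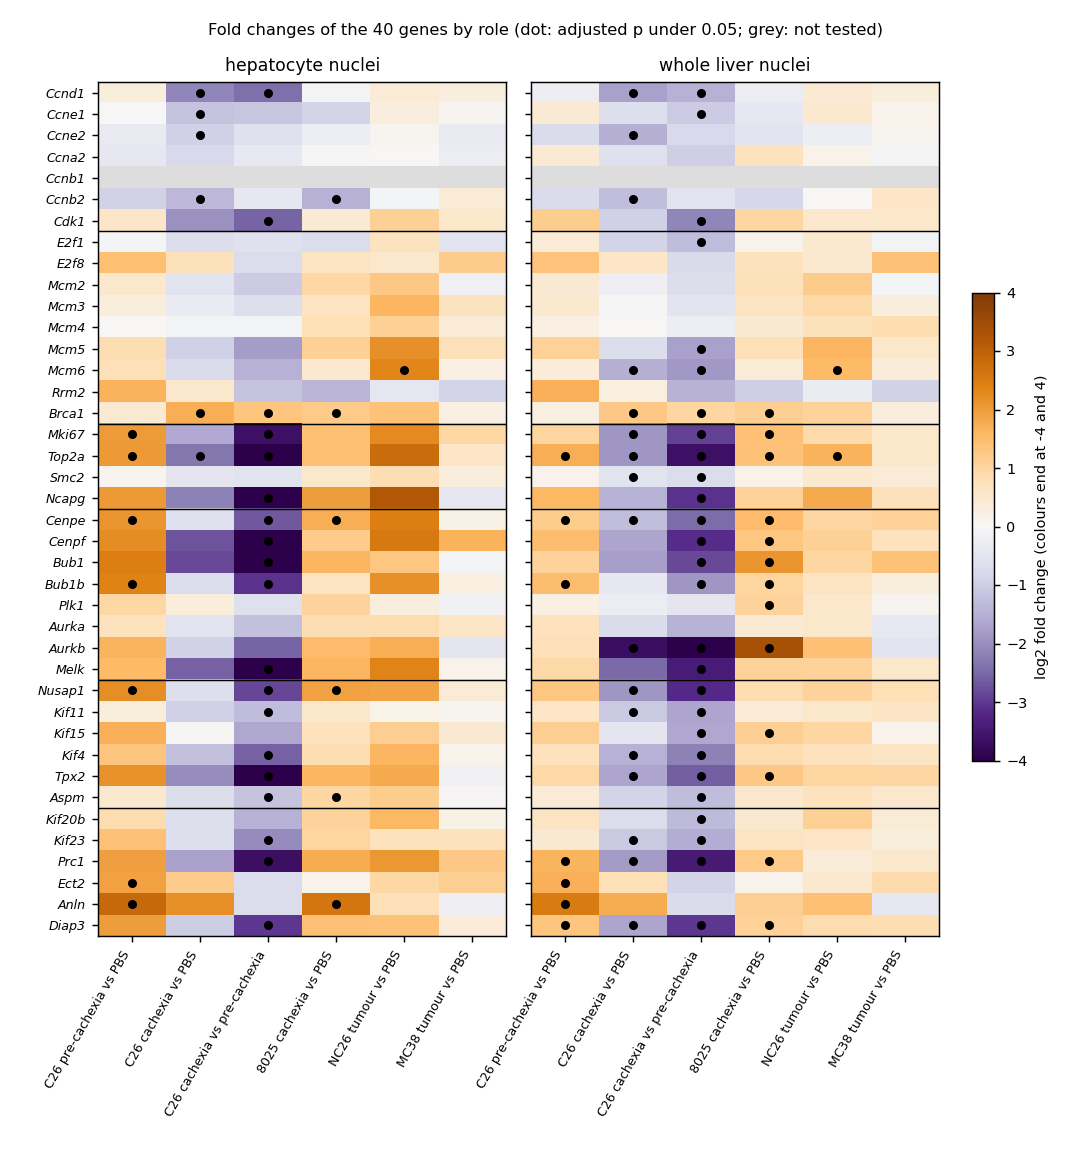
Log2 fold change of each of the 40 genes, ordered by role, in 6 comparisons of hepatocyte nuclei and of whole liver nuclei (colour scale, ends at -4 and 4; dots mark an adjusted p under 0.05, grey is not tested). The column of C26 cachexia against pre-cachexia holds 18 genes that fell in the hepatocyte panel and 26 in the whole liver panel, and Brca1 rose in both.

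Other cell markers also differed between the stages. In hepatocyte nuclei 2 of 4 tested T and NK cell markers fell at cachexia against pre-cachexia, with list sums of 5.91 to 14.8 CPM against 11 to 36.6 CPM, and Cd8a, Ncr1 and Gzma were at 0 in all 4 cachexia animals. The Kupffer list summed to 86.4 to 127.9 CPM at cachexia, against 83 to 106.8 CPM at pre-cachexia, and 1 of 13 rose. Of the hepatocyte markers 3 of 10 rose, with sums of 16137.9 to 28002.3 CPM against 9092.6 to 12108.3 CPM. In whole liver nuclei 6 of 8 B cell markers, 4 of 7 monocyte markers, 3 of 8 T and NK cell markers and 3 of 13 Kupffer markers fell. The part of these cells in the result was not tested.

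NC26 is the line of the same strain whose carriers kept their weight. In hepatocyte nuclei only Mcm6, a subunit of the replicative helicase, rose with the NC26 tumour against PBS (1 of 39, background 0.316%), and 0 genes fell (background 0.00753%). Few genes of any kind passed here, the median log2 fold change of the 39 was 1.27 against 0 over all genes, and 37 had a positive sign. By unadjusted p under 0.05, 21 of the 39 passed, against 1579 of all 13274 tested genes, and DESeq2 called 7. In 9 genes all tumour animals were above all PBS animals (background 4.64%). Mcm6 was at 3.21, 1.14, 1.36 and 11.8 CPM with the tumour, against 0.728, 0.93, 0.828 and 0.923 CPM in PBS (5.05-fold, log2 fold change 2.34 ± 0.54, adjusted p = 0.046). The groups did not overlap, and tumour animal 4 was far above the others. Without that animal the log2 fold change was 1.16 (adjusted p = 0.5), and the count was also 0 without tumour animal 1 or any of the 4 PBS animals, and 5 without tumour animal 2. Top2a was at 2.52, 0.645, 1.29 and 3.83 CPM, against 0.192, 0.465, 0.155 and 0.342 CPM (log2 fold change 2.79 ± 0.67, adjusted p = 0.058), and Mki67 at 5.48, 1.52, 3.84 and 1.03 CPM, against 0.652, 0.677, 0.155 and 0.923 CPM (2.26 ± 0.67, adjusted p = 0.16). Neither overlapped, and neither passed. Cdk1 was at 0.934, 0.569, 0.695 and 1.62 CPM, against 0.422, 0.211, 0.621 and 0.479 CPM (1.12 ± 0.65, adjusted p = 0.5), Ccnd1 at 1.26, 1.1, 1.09 and 0.59 CPM, against 0.69, 0.888, 0.724 and 0.787 CPM (0.40 ± 0.54, adjusted p = 0.81), and Ccne2 at 4.51, 3.83, 3.51 and 6.34 CPM, against 4.37, 3.13, 3.26 and 6.16 CPM (0.09 ± 0.30, adjusted p = 0.93). These 3 overlapped.

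Mcm6 and Top2a rose with NC26 in whole liver nuclei (2 of 39, background 0.706%), and 0 genes fell (background 0.0218%). An unadjusted p under 0.05 was found for 19 of the 39, against 1679 of all 13738 tested genes, and DESeq2 called 3. Top2a was at 4.74, 2.33, 3.23 and 3.91 CPM, against 1.32, 1.4, 0.566 and 1.02 CPM in PBS, without overlap (3.21-fold, log2 fold change 1.68 ± 0.36, adjusted p = 0.016). Mcm6 was at 3.95, 1.88, 2.37 and 10.3 CPM, against 1.53, 1.74, 1.26 and 1.8 CPM (log2 fold change 1.54 ± 0.37, adjusted p = 0.034). Mki67 overlapped, at 8.92, 3.35, 9.41 and 3.24 CPM against 2.78, 4.36, 2.39 and 3.76 CPM (0.90 ± 0.36, adjusted p = 0.28). In 9 genes the groups were apart with the tumour higher (background 5.68%). Depending on the animal left out, the count lay between 0 and 4. Of the Kupffer markers 0 of 13 rose with NC26 in the hepatocyte fraction and 3 of 13 in the whole liver fraction. The T and NK cell list summed to 14.1 to 19.1 CPM in hepatocyte nuclei with NC26, against 5.59 to 10.2 CPM in PBS, the cholangiocyte list to 279.3 to 345.2 CPM, against 204.2 to 237.3 CPM (0 of 8 rose), and the monocyte list to 5.08 to 6.9 CPM, against 2.48 to 4.34 CPM (0 of 7 tested rose). The cholangiocyte list also stood apart in the whole liver fraction, at 257.9 to 288.2 CPM with NC26, against 196.9 to 225.7 CPM in PBS (0 of 8 rose), as did the monocyte list, at 27.1 to 33.5 CPM against 16.5 to 20.4 CPM (0 of 7 tested rose). The part of these cells in the result was not tested.

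The difference between the C26 and NC26 effects was tested directly, each against its own PBS group. For pre-cachexia it called 0 of 39 genes in both fractions (background 0% in each direction, 0 by DESeq2 in both). In hepatocyte nuclei 3 of the 39 had an unadjusted p under 0.05, against 647 of all 13274 tested genes. In whole liver nuclei 2 did, against 568 of all 13738. The median difference in hepatocyte nuclei was -0.31, that of Mki67 was -0.23 ± 0.90 and that of Top2a -0.73 ± 0.89, so effects that differ by several fold in either direction lie within 2 SE. For cachexia, 5 genes were lower in hepatocyte nuclei, Mki67, Cenpf, Mcm6, Top2a and Ncapg (background 0.957%), with a median difference of -1.94 over the 39 genes. Top2a differed by -5.11 ± 1.02 (adjusted p = 0.0075), Cenpf by -5.25 ± 1.32 (adjusted p = 0.031), Mki67 by -3.87 ± 0.98 (adjusted p = 0.032), Mcm6 by -3.06 ± 0.78 (adjusted p = 0.033) and Ncapg, a condensin subunit, by -5.38 ± 1.42 (adjusted p = 0.041). Cdk1, Ccnd1 and Ccne2 differed by -3.09 ± 0.98, -2.50 ± 0.81 and -1.05 ± 0.43 and did not pass (adjusted p = 0.098, 0.1 and 0.21). In whole liver nuclei 12 genes were lower (background 1.73%), led by Top2a at -3.58 ± 0.57 (adjusted p = 0.00044), Mcm6 at -3.05 ± 0.56 (adjusted p = 0.0019) and Mki67 at -2.79 ± 0.54 (adjusted p = 0.0031). The count of 5 in hepatocyte nuclei lay between 1 and 8 with an animal left out, and was 1 without C26 cachexia animal 2, NC26 PBS animal 1 or NC26 PBS animal 3, 2 without C26 cachexia animal 4, C26 PBS animal 4 or NC26 tumour animal 1, 3 without C26 cachexia animal 3, C26 PBS animal 2 or NC26 tumour animal 4, and 8 without NC26 tumour animal 2. The count of 12 was 7 without C26 cachexia animal 2 or 4, C26 PBS animal 2 or NC26 PBS animal 1. The 2 PBS groups of the strain differed in 0 of the 39 genes in hepatocyte nuclei (background 0%, 0 by DESeq2). There 0 had an unadjusted p under 0.05, against 1208 of all 13274 tested genes, and 1 was higher in every C26 PBS animal (background 2.02%). In whole liver nuclei the 2 groups differed in Smc2, a condensin subunit, which was higher in C26 PBS (log2 fold change 0.77 ± 0.20, adjusted p = 0.015, background 5.46%). That call was lost without C26 PBS animal 1 or NC26 PBS animal 1.

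**Figure D4:**
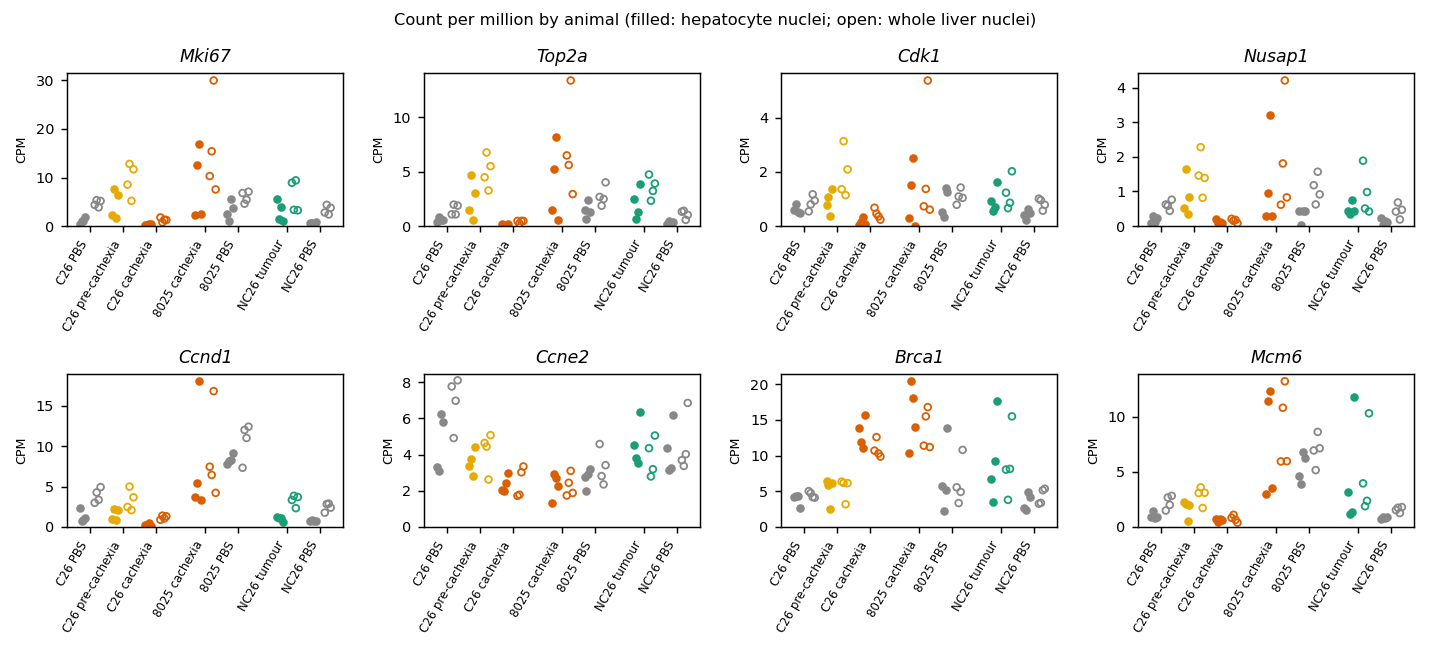
CPM of 8 genes in each animal of the C26, 8025 and NC26 cohorts (filled points, hepatocyte nuclei; open points, whole liver nuclei). Top2a in hepatocyte nuclei is between 0.0322 and 0.162 CPM in C26 cachexia and between 0.585 and 4.68 CPM in C26 pre-cachexia, and Brca1 is between 11.1 and 15.7 CPM in C26 cachexia and between 2.62 and 4.41 CPM in C26 PBS.

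With 8025, the other line that causes cachexia, more of the tested genes were called higher than lower. In hepatocyte nuclei Brca1, Aspm, Anln, Nusap1 and Cenpe rose against PBS (5 of 39, background 16.2%) and Ccnb2 fell (background 13.1%), so that both shares are below the background. The median log2 fold change was 0.95, against -0.02 over all genes, and 32 of 39 signs were positive. Ccnb2 was at 1.65, 2.37, 1.93 and 1.43 CPM in 8025 cachexia, against 4.92, 5.75, 3.88 and 6.06 CPM in PBS (0.356-fold, log2 fold change -1.49 ± 0.34, adjusted p = 0.0014), without overlap, and it passed without any single animal. Anln was at 1.09, 0.842, 1.49 and 0.295 CPM, against 0.281, 0.0402, 0 and 0.182 CPM (6.09-fold, log2 fold change 2.61 ± 0.81, adjusted p = 0.015), also without overlap. It reached the filter level in few groups, so its call follows in part from the filter. Nusap1 was at 0.3, 0.948, 3.2 and 0.295 CPM, against 0.421, 0.0402, 0.431 and 0.424 CPM (3.77-fold, log2 fold change 1.92 ± 0.61, adjusted p = 0.018), and Cenpe at 0.863, 4.9, 8.59 and 0.836 CPM, against 1.32, 0.402, 1.83 and 1.21 CPM (3.31-fold, log2 fold change 1.73 ± 0.58, adjusted p = 0.025). In both, animals 2 and 3 were above all PBS animals and animals 1 and 4 within their range. Without animal 3 the log2 fold change was 0.66 for Nusap1 (adjusted p = 0.44) and 0.92 for Cenpe (adjusted p = 0.26). Brca1 was at 10.4, 20.5, 18.1 and 14 CPM, against 5.81, 2.25, 5.17 and 13.9 CPM (2.33-fold, log2 fold change 1.22 ± 0.41, adjusted p = 0.026), and the groups overlapped through PBS animal 4.

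Mki67 and Top2a were above all PBS animals in animals 2 and 3 only, and neither passed. Mki67 was at 2.21, 12.5, 16.9 and 2.46 CPM in 8025 cachexia, against 2.47, 1.13, 5.49 and 3.7 CPM in PBS (log2 fold change 1.47 ± 0.61, adjusted p = 0.067), and Top2a at 1.43, 5.21, 8.19 and 0.59 CPM, against 1.43, 0.683, 2.37 and 1.33 CPM (1.47 ± 0.59, adjusted p = 0.058). Cdk1 was at 0.3, 1.53, 2.51 and 0 CPM, against 0.506, 0.322, 1.4 and 1.27 CPM (0.43 ± 0.63, adjusted p = 0.65). For Cdk1 animals 2 and 3 were above all PBS animals and animals 1 and 4 below them. Ccnd1 was at 3.68, 5.42, 18 and 3.34 CPM, against 7.84, 8.12, 8.29 and 9.09 CPM (-0.12 ± 0.46, adjusted p = 0.87), with 3 of 4 animals below the PBS range and animal 3 above it, and Ccne2 at 1.35, 2.9, 2.73 and 2.26 CPM, against 2.75, 2.01, 2.91 and 3.21 CPM (-0.23 ± 0.32, adjusted p = 0.62). The count of 6 calls was 1 without 8025 PBS animal 2, 3 without cachexia animal 2 or 3, 12 without cachexia animal 4 and 14 without cachexia animal 1, and 1 with only the 8025 libraries in the fit. The order of the cachexia animals by the sum of the 40 genes, 3 before 2, 4 and 1, was also their order by the T and NK cell list, at 101.1, 56.9, 26.7 and 16.8 CPM, against 7 to 26.6 CPM in PBS. In whole liver nuclei the orders differed, with animal 4 lowest in the sum (92.5 CPM) and animal 1 in the list (37.4 CPM). They also differed in hepatocyte nuclei at C26 pre-cachexia, where animal 2 was highest in the sum and animal 1 in the list (36.6 CPM). In 8025 hepatocyte nuclei Themis made up most of the list, at 11.6 to 97.4 CPM in cachexia. Cd3e was there at 0.105 to 0.255 CPM in cachexia, against 0.108 to 0.322 CPM in PBS. Animal 3 was also the highest in the cholangiocyte list, with 634.8 CPM against 250.9 to 311.2 CPM in the other 3 and 249.8 to 320.1 CPM in PBS, and 5 of 8 of these markers rose. The Kupffer list was at 135.6 to 169.9 CPM, against 46.4 to 57.3 CPM in PBS, with 11 of 13 rising. The part of these cells in the result was not tested.

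With 8025 cachexia 13 of 39 genes rose in whole liver nuclei (background 18.7%), including 6 of 8 kinetochore and checkpoint genes, and 0 fell (background 17.9%). An unadjusted p under 0.05 was found for 18 of the 39, against 6213 of all 13738 tested genes, and DESeq2 called 13 in either direction. Mki67 was at 10.3, 15.4, 30 and 7.54 CPM, against 6.8, 4.6, 5.41 and 7.07 CPM in PBS (2.66-fold, log2 fold change 1.41 ± 0.36, adjusted p = 0.0023), and here all 4 cachexia animals were above all PBS animals. Top2a was at 6.5, 5.62, 13.4 and 2.94 CPM, against 2.68, 1.87, 2.49 and 4.02 CPM (log2 fold change 1.38 ± 0.34, adjusted p = 0.002), with animal 4 in the PBS range. Aurkb was at 1.06, 0.624, 1.04 and 0.151 CPM, against 0, 0.078, 0 and 0.183 CPM (10.3-fold, log2 fold change 3.37 ± 0.73, adjusted p = 0.00051). Cdk1 did not pass, at 0.728, 1.37, 5.37 and 0.603 CPM against 0.784, 1.09, 1.42 and 1.04 CPM (0.98 ± 0.48, adjusted p = 0.11), nor did Ccnd1, at 7.45, 6.43, 16.8 and 4.22 CPM against 7.32, 12, 11 and 12.4 CPM (-0.27 ± 0.32, adjusted p = 0.54), nor Ccne2, at 1.74, 2.44, 3.1 and 1.88 CPM against 4.58, 2.81, 2.35 and 3.41 CPM (-0.50 ± 0.31, adjusted p = 0.21). The count of 13 was 6 without PBS animal 2, 8 without cachexia animal 3, and 4 with only the 8025 libraries in the fit. Of the Kupffer markers 12 of 13 and of the monocyte markers 7 of 7 rose in the same libraries, and their part in the result was not tested.

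The cachexia effects of both lines were also set against each other, in a comparison chosen after seeing the data. Strain and cohort differ with the line and cannot be told apart from it. In hepatocyte nuclei 0 of 39 genes differed by edgeR (background 0.392% higher and 0.565% lower) and 5 by DESeq2. An unadjusted p under 0.05 was found for 20 of the 39, against 1863 of all 13274 tested genes. The median was -1.51 for C26 minus 8025, and Top2a stood at -3.78 ± 0.97 (adjusted p = 0.051). In whole liver nuclei 12 genes were lower in C26 (background 4.6%), Mki67 by -3.31 ± 0.54 (adjusted p = 0.00031) and Top2a by -3.28 ± 0.56 (adjusted p = 0.00057), and 0 were higher (background 1.97%). Without 8025 cachexia animal 4 the count of 12 was 20, and the count of 0 in hepatocyte nuclei was 3 without 8025 cachexia animal 1 and 1 without 8025 cachexia animal 4 or 8025 PBS animal 3.

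MC38, the weight-stable line of C57BL/6N mice, changed none of the 39 genes past the threshold in either fraction (background 0% in each direction, as for all genes). By unadjusted p under 0.05, 0 of the 39 genes passed in the hepatocyte fraction, against 572 of all 13274 tested. In the whole liver fraction 6 passed, against 790 of all 13738, and DESeq2 called 0 in both. The median log2 fold change was 0.24 in hepatocyte and 0.50 in whole liver nuclei. Cenpf was the single gene of hepatocyte nuclei in which the groups were apart with the tumour higher (background 1.19%), at 0.265, 0.678, 0.709 and 0.431 CPM against 0.0719, 0.174, 0.245 and 0.16 CPM in PBS (log2 fold change 1.67 ± 0.84, adjusted p = 1). Whole liver nuclei had 9 genes apart in that direction (background 1.91%). Mki67 was at 0.838, 1.57, 1.68 and 1.69 CPM in hepatocyte nuclei with the tumour, against 0.827, 0.939, 0.816 and 0.374 CPM (0.94 ± 0.67, adjusted p = 1), and Top2a at 0.485, 0.509, 0.373 and 0.596 CPM, against 0.36, 0.383, 0.367 and 0.16 CPM (0.59 ± 0.70, adjusted p = 1). The values of Cdk1, Ccnd1 and Ccne2 overlapped between the groups, with log2 fold changes of 0.55 ± 0.68, 0.29 ± 0.46 and -0.37 ± 0.30 (adjusted p = 1 for each).

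In none of the 6 comparisons of a tumour or stage did Ccna2, E2f1, E2f8, Mcm2, Mcm3, Mcm4, Mcm5, Rrm2, Smc2, Plk1, Aurka, Aurkb, Kif15 or Kif20b pass the test in hepatocyte nuclei, 14 of 39 genes. At pre-cachexia against PBS their log2 fold changes lay between -0.41 for Ccna2, the S phase cyclin, and 1.70 for Kif15, a spindle motor. The genes that passed in none in whole liver nuclei were 7: Ccna2, E2f8, Mcm2, Mcm3, Mcm4, Aurka and Rrm2, the ribonucleotide reductase subunit. Most of the replication genes are thus among those that passed in no comparison.

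The 40 genes are a selection, and 179 other genes of the cell cycle were listed by role, of which 171 were tested in hepatocyte nuclei. Between C26 cachexia and pre-cachexia 31 of the 171 fell (background 4.27%) and 5 rose (background 4.81%), the 5 being below the background share (median log2 fold change -0.40). The genes that fell were 10 of 27 of the kinetochore, spindle checkpoint and APC/C, 7 of 26 of condensin, cohesin and spindle, 4 of 11 of cytokinesis, 3 of 14 of the checkpoint and G2-M entry, 3 of 20 of fork protection and repair, 2 of 16 of the G1 list and 2 of 39 of replication. Kif14, a midbody motor, fell by 4.60 ± 0.79 on the log2 scale (adjusted p = 3e-04), Racgap1, which binds Ect2 at the midzone, by 3.73 ± 0.75 (adjusted p = 0.0014), Hmmr, a spindle protein, by 4.79 ± 0.98 (adjusted p = 0.0017), and Mcm10, a replication initiation factor, by 1.91 ± 0.35 (adjusted p = 0.00052). Wee1, the kinase that holds back CDK1, fell by 1.67 ± 0.29 (adjusted p = 0.00034). Ndc80, a kinetochore gene, fell to 0.04, 0, 0 and 0 CPM at cachexia, against 0.618, 1.23, 0.135 and 1.16 CPM at pre-cachexia (adjusted p = 0.0014), and Rad54l, a recombination gene, was at 0 in all 4 cachexia animals, against 0.329, 0.548, 0.135 and 0.472 CPM (adjusted p = 0.01). The genes that rose included Ccnd3, another D-type cyclin, with a log2 fold change of 1.84 ± 0.29 (adjusted p = 8.5e-05), E2f7, a repressor of the family, with 2.06 ± 0.56 (adjusted p = 0.016), and Rb1, the retinoblastoma protein, with 0.41 ± 0.12 (adjusted p = 0.025). Ccnd3 and Ccnd1 thus moved in opposite directions.

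At pre-cachexia against PBS 10 of the 171 rose and 4 fell (median log2 fold change 0.21), both near the background of 4.78% and 2.94%. Those that rose included Nuf2, a kinetochore gene (3.09 ± 0.89, adjusted p = 0.03), Kif14 (2.29 ± 0.63, adjusted p = 0.025), Uhrf1, which carries DNA methylation through replication (3.15 ± 0.95, adjusted p = 0.036), Cdkn3, a phosphatase of CDKs (2.86 ± 0.83, adjusted p = 0.031), and Myc (2.16 ± 0.64, adjusted p = 0.034). Skp2, the ubiquitin ligase subunit that targets p27, fell (-0.74 ± 0.17, adjusted p = 0.0098). So did Zw10 of the kinetochore list (-0.37 ± 0.10, adjusted p = 0.016), Lats2 of the cytokinesis list (-0.36 ± 0.09, adjusted p = 0.016) and Ccnf of the checkpoint list (-0.75 ± 0.23, adjusted p = 0.042). At cachexia against PBS 7 rose and 15 fell, with a median of -0.21, the first below its background of 12.2% and the second near its background of 10%. Ccnd3 rose (2.21 ± 0.29, adjusted p = 2.2e-06), at 275, 268, 425 and 479 CPM against 114, 60.7, 74.7 and 64.1 CPM in PBS, and Wee1 (-2.10 ± 0.30, adjusted p = 5.6e-06), Mcm10 (-1.82 ± 0.35, adjusted p = 0.00028) and Spc25 of the kinetochore (-2.47 ± 0.56, adjusted p = 0.0016) fell. In 8025 cachexia 18 rose and 9 fell, both below the background of 16.2% and 13.1%. Cdkn1a, the CDK inhibitor p21, rose (4.69 ± 1.03, adjusted p = 0.00091), at 2.03, 2.11, 18.6 and 2.71 CPM against 0.225, 0.0402, 0.323 and 0.485 CPM in PBS, as did Ccnd3 (1.06 ± 0.28, adjusted p = 0.005) and Foxm1, the transcription factor of mitotic genes (1.40 ± 0.44, adjusted p = 0.017), while Wee1 (-2.07 ± 0.30, adjusted p = 4.9e-06) and Mcm10 (-2.33 ± 0.36, adjusted p = 1.1e-05) fell. With NC26 and MC38, 0 of the 171 passed in hepatocyte nuclei by edgeR, with medians of 0.46 and 0.08. An unadjusted p under 0.05 was found for 65 and 4 of them, against 1579 and 572 of all 13274 tested genes.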

How the data were processed

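Nuclear RNA of 36 mouse livers was sequenced as 72 libraries, 50-base paired-end reads from a stranded kit without poly-A selection, per the labels' protocols. The authors deposited whole-number counts per gene over the gene span, and STAR 2.4.2a, DESeq2 1.24.0 and build mm10 stand in the submitters' processing notes without a role. Strand use in counting is not given in the sources used here. Of 20105 genes, 2208 had no count.

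From these counts, edgeR 4.0.16 (R 4.3.3) fitted all 36 libraries of a fraction in 9 groups after TMM scaling and filterByExpr (13274 genes in hepatocyte and 13738 in whole liver nuclei), and all 72 libraries in 18 groups for the fraction comparisons (14054 genes). The quasi-likelihood F test gave p-values, adjusted by Benjamini-Hochberg over all genes with a threshold of 0.05. SE is the log2 fold change over the square root of F. Alternatives were RLE size factors, no filter, only the compared libraries, DESeq2 1.42.0, blocks and each animal left out. Scripts were tested on simulated data. Replicates differed beyond sampling noise in all 108 pairs checked. Both libraries of a mouse come from one liver, and their deviations correlated at a median of 0.67 (-0.25 to 0.87 over the 36 animals).

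The 40 genes and all lists were chosen with earlier results of these data known. Mki67, Top2a, Cdk1, Ccnd1 and Ccne2 are given in the main comparisons, with up to 5 called genes of smallest p per comparison in hepatocyte nuclei and, of the other lists, up to 2 each. Intervals cover counting error only.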

Additional observations from a re-analysis of the deposited data

Results flagged for a closer look

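Dixon's criterion was applied to the sum of the 40 genes and to Mki67, Top2a, Cdk1, Ccnd1 and Ccne2 in each group. In 8 of these 108 sets of 4 values a single animal stood apart. Chance gives about 1 in 20, but the sets share animals and the sum holds these genes, so that rate is only a rough guide. The summed level of the 40 genes was 91.6 CPM in whole liver nuclei of 8025 PBS animal 2, with 124.5 to 129 CPM in the other 3. Ccnd1 was at 18 CPM in hepatocyte nuclei of 8025 cachexia animal 3, with 3.34 to 5.42 CPM in the others, and Cdk1 at 5.37 CPM in whole liver nuclei of the same animal, with 0.603 to 1.37 CPM in the others. With the MC38 tumour, Ccnd1 was at 10.7 CPM in whole liver nuclei of animal 4, Ccne2 at 5.07 CPM in whole liver nuclei of animal 3 and Mki67 at 0.838 CPM in hepatocyte nuclei of animal 1. Top2a was at 0.16 CPM in hepatocyte nuclei of MC38 PBS animal 4 and at 0.227 CPM in whole liver nuclei of C26 cachexia animal 2.

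The effect of C26 cachexia differed from that of NC26, each against its own PBS group, by an interaction test at an adjusted p under 0.05. In hepatocyte nuclei the log2 difference was -3.06 for Mcm6, -3.87 for Mki67, -5.11 for Top2a, -5.38 for Ncapg and -5.25 for Cenpf. In whole liver nuclei it was -2.15 for Ccnd1, -3.05 for Mcm6, -2.79 for Mki67, -3.58 for Top2a, -1.04 for Smc2, -3.28 for Ncapg, -2.25 for Cenpe, -5.13 for Aurkb, -2.93 for Nusap1, -2.19 for Kif4, -2.70 for Tpx2 and -2.55 for Diap3. The effect of C26 cachexia also differed from that of 8025 cachexia in whole liver nuclei, in a comparison chosen after seeing the data. The log2 difference was -1.89 for Mcm6, -3.31 for Mki67, -3.28 for Top2a, -2.78 for Cenpe, -2.98 for Cenpf, -3.88 for Bub1, -7.07 for Aurkb, -2.74 for Nusap1, -2.33 for Kif4, -2.96 for Tpx2, -3.04 for Prc1 and -2.75 for Diap3. The Aurkb values rest on 1 read in the 4 C26 cachexia libraries and depend on the prior count of the model.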

How the results depend on the processing

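The sums of the 40 genes kept their direction under each scaling tried, and leaving out an animal gave log2 ratios of 0.63 to 0.92 for C26 pre-cachexia over PBS, -0.31 to -0.04 for cachexia over PBS and -1.10 to -0.76 for cachexia over pre-cachexia in hepatocyte nuclei. DESeq2 gave 11 and 12 called genes at pre-cachexia in hepatocyte and whole liver nuclei (7 each by edgeR), 7 for NC26 in hepatocyte nuclei (1), 13 and 20 for the C26 cachexia effect minus the NC26 effect (5 and 12) and 5 and 19 for that minus the 8025 effect (0 and 12), where RLE scaling gave 1 in hepatocyte nuclei. Without the filter the pre-cachexia count of hepatocyte nuclei was 3. With only the compared libraries it was 1, and 11 in whole liver nuclei, while the 8025 counts were 1 and 4 (6 and 13), the NC26 count of whole liver nuclei 1 (2) and the cachexia minus NC26 count of hepatocyte nuclei 10.

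Replicate numbers did not pair the animals in general: 13 of 48 same-number pairs had a correlation over 0.1. For C26 pre-cachexia and PBS in hepatocyte nuclei the correlations were 0.256, 0.125, 0.0583 and 0.448, so pairing is less clear there. With the number as a replicate block the counts in hepatocyte nuclei were 2 at pre-cachexia, 3 for 8025, 0 for NC26 and 1 for cachexia minus NC26, and in whole liver nuclei 4, 7 and 1 for the first 3, and Cdk1 in 8025 hepatocyte nuclei had a log2 fold change of -0.0877. No paired analysis was possible for the C26 against NC26 PBS groups because the block could not be estimated. With an animal left out, the counts in hepatocyte nuclei lay between 0 and 11 at pre-cachexia, 3 and 6 for cachexia against PBS, 10 and 23 for cachexia against pre-cachexia, 1 and 14 for 8025, 0 and 5 for NC26, 1 and 8 for cachexia minus NC26 and 0 and 3 for cachexia minus 8025. In whole liver nuclei they lay between 1 and 13, 12 and 18, 18 and 28, 6 and 18, 0 and 4, 7 and 16, and 8 and 20 in that order, and 0 and 1 for C26 against NC26 PBS. Some log2 fold changes that did not pass turned their sign in hepatocyte nuclei: Cdk1 in 8025 lay between -0.45 (without cachexia animal 3) and 0.83, Ccnd1 in 8025 between -1.01 and 0.12 (without cachexia animal 4; 0.0958 without animal 1), and Ccne2 with NC26 between -0.0965 (without tumour animal 4) and 0.34, with -0.0278 and -0.0205 without PBS animals 2 and 3. The cause of these changes was not tested. Depth limits genes such as Bub1, Melk and Aurkb, with 1 to 3 reads in a group.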

Other observations

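E2f8, an atypical E2F repressor linked to hepatocyte polyploidy, was high in single animals. In hepatocyte nuclei it was at 20.1 CPM in C26 pre-cachexia animal 3 (4.57 to 9.91 CPM in the other 3), at 14.6 CPM in C26 cachexia animal 1 (2.12 to 4.61 CPM) and at 18.1 CPM in MC38 tumour animal 2 (1.19 to 2.5 CPM). Ect2 was at 7.88, 9.39 and 13.1 CPM in the same 3 libraries, and in whole liver nuclei of these animals E2f8 was at 17.3, 11.6 and 16.5 CPM. C26 pre-cachexia animal 3 was at the same time the lowest of its group in 34 of the 40 genes in hepatocyte nuclei, and its share over all genes was not counted.

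With the NC26 tumour, the MCM helicase genes were high in animal 4. In its hepatocyte nuclei Mcm2 was at 5.9 CPM (1.16 to 2.92 CPM in the other 3), Mcm3 at 6.83 CPM (1.1 to 2.48 CPM), Mcm4 at 7.13 CPM (1.86 to 3.17 CPM), Mcm5 at 9.78 CPM (0.759 to 1.99 CPM) and Mcm6 at 11.8 CPM (1.14 to 3.21 CPM). Mki67 was lowest of the 4 in that animal, at 1.03 CPM. These animals were picked after their values were seen, and no test was made.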
